A study of Homo sapiens with 7 samples.

Results

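The RNF genes of the table, which encode RING finger proteins, were taken as every row whose gene symbol begins with RNF and a digit, with RNF2 left out. The rule found 81 transcripts of 81 symbols among 25918 transcripts in all, 79 listed as coding and 2 as noncoding. RNF126P1, RNF138P1 and RNF5P1 are copies of RNF126, RNF138 and RNF5, so reads may be shared with the parent genes and their values are uncertain. N6-methyladenosine (m6A), a methyl mark on adenosines of messenger RNA, was mapped in untreated cells labelled HepG2, a human liver carcinoma line grown in DMEM with serum. Of 7 libraries, 4 came from poly(A) RNA fragments of about 100 nt precipitated with an antibody against m6A and 3 from input RNA without antibody. The deposited table pools them, so no value per library, no sequencing depth and no replicate error could be had, and no test was made. Of 10 genes typical of hepatocytes and HepG2 (ALB, AFP, APOA1, APOA2, APOB, TTR, SERPINA1, FGB, TF and HNF4A), 6 stood at the lowest expression quantile of the table, 0.314, ALB, AFP, APOB and TTR among them. FGB stood at 0.619 and HNF4A at 0.509, and none of the 10 had a peak. With these defining genes at the lowest value, the identity of the cells as HepG2 is in doubt, and every value below describes the cells only as they were labelled.

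RING fingers are zinc-binding domains that hold a ubiquitin-loaded E2 enzyme beside a substrate, so that ubiquitin passes to the substrate directly. In the RBR class (RING-in-between-RING) ubiquitin first moves to a cysteine of the ligase itself. RNF proteins mark histones at broken DNA, remove receptors from the cell surface, pull misfolded proteins from the endoplasmic reticulum and tune immune and growth factor signals. m6A is placed on transcripts by a methyltransferase complex, mostly within the motif RRACH, where R is a purine and H any base but G, and is read by proteins that change stability and translation of the transcript.

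The sequences below are shown because they lie under the highest-scoring peaks of RNF transcripts. They belong to the highest peak of each of the 10 RNF transcripts with the highest scores among those that could be placed on GENCODE release 29 models, each cut 12 nt to either side of the RRACH nearest the listed position. Capitals mark that RRACH, and letters are those of the sense strand, 5′ to 3′, with T for U.
RNF169, 3' UTR: gcattttgacaaAGACAgaggacttggac
RNF182, coding sequence: caacatccttgtAAACTtgacttgtggag
RNF11, around the stop codon: catctatcacctGGACTgtatagatgact
RNF20, around the stop codon: tacctttcctccAGACTttacttccaggc
RNF145, 3' UTR: agaagtggaactGAACTttcactctccat
RNF157, around the stop codon: aagccactcaatGAACTgcagctcacgag
RNF24, around the stop codon: accgcaaggatcAGACTgttgctggacac
RNF4, around the stop codon: ggatggacagacAGACAgccaggttctcc
RNF25, around the stop codon: ccccaccccgcaGGACTcgggactgtgtt
RNF111, coding sequence: ataagtggcctcGGACTgagacagaatct
The nearest RRACH was GGACT in 3 of the 10 (RNF11, RNF25 and RNF111) and another form in the rest. Its A lay between 29 nt before and 25 nt after the listed position, and within 15 nt of it in 7 of 10. The site was picked as the nearest, so its closeness is partly by construction. No such distance was taken over the other peaks, and nothing is read from this count. RNF182 and RNF11 had a single RRACH within 50 nt of the peak, while RNF157 and RNF4 had 5.

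At least 1 peak was listed in 43 of the 81 RNF transcripts (53.1%, 95% Wilson interval 42.3 to 63.6%), against 27.9% of all transcripts and 35.0% of coding ones. Intervals cover counting error only. The 43 transcripts carried 80 peaks, a mean of 1.86 each, against 1.76 over all transcripts with a peak. A single peak was listed in 24, and 19 of 81 had 2 or more, against 12.3% of all transcripts. Of those 19, 10 had exactly 2 and 5 had at least 4. The authors' peak score, whose scale is not given, had a median of 3.77 for the highest peak of each RNF transcript (range 2.10 to 6.56), against 3.55 over all transcripts with a peak. A score of 5 or more was reached by 11 of 81 RNF transcripts (13.6%), against 3.36% of all transcripts. Among transcripts with a peak those shares were 25.6% of RNF and 12.03% of all.

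**Figure D1:**
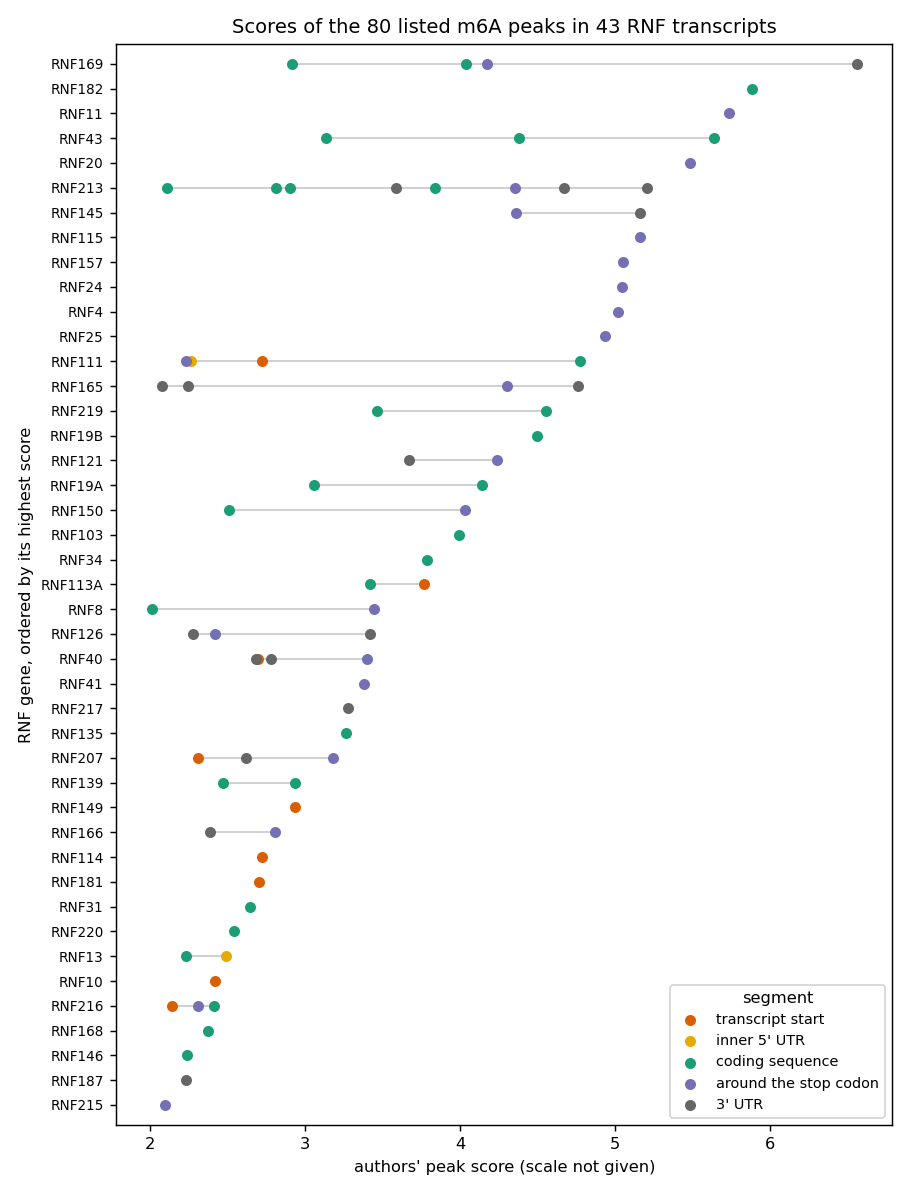
Score of each listed peak (horizontal axis, authors' scale) in the 43 RNF transcripts with a peak, ordered from top to bottom by their highest score; colours give the transcript segment and grey lines join peaks of 1 gene. RNF169 stands highest at 6.56 with a peak in the 3' UTR, and RNF213 has the most peaks, 8.

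The counts for the role lists below stand beside 35.0% of all coding transcripts with a peak, 65.1% of those at quantiles from 0.7 to 0.8 and 71.5% of those from 0.8 to 0.9. The median quantile was 0.770 for the chromatin list, 0.718 for the Wnt and TGF-beta list and 0.847 for the innate immune list, so these lists lie in bands where most coding transcripts had a peak. Median quantiles were 0.642 for the RBR list, 0.639 for the endoplasmic reticulum list and 0.636 for the protease-associated domain list. Of coding transcripts from 0.6 to 0.7, 52.1% had a peak. The median was 0.874 for the quality control list and the lowest quantile, 0.314, for the germline list. Nothing is read from the count of any role list as particular to that list.

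Ligases of chromatin and DNA damage signalling carried peaks in 8 of 9 genes, with 19 peaks in all, 4 of them of RNF111, which is described with the TGF-beta ligases. RNF169, which binds ubiquitylated nucleosomes at DNA double strand breaks, had the highest score of the RNF genes (chromosome 11, 74137561 to 74231106, plus strand). All 4 of its peaks lay in exon 6, the last, which is 6868 nt long. They scored 2.91 and 4.04 in the coding sequence, 4.18 around the stop codon and 6.56 in the 3' UTR, 5497 nt beyond the stop codon. RNF168, which writes the mark that RNF169 binds, had 1 weak peak in the coding sequence (2.38), and RNF8, which acts before it at the break, had 2 (2.01 in the coding sequence and 3.45 around the stop codon). The peaks of RNF8 and RNF169 thus include the lowest and the highest score of all 80 RNF peaks.

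RNF20 and RNF40 together form the ligase that attaches ubiquitin to histone H2B. RNF20 had a single peak of 5.48, in exon 20 around the stop codon (chromosome 9, 103335954 to 103365447, plus strand), at an expression quantile of 0.770. RNF40 had 4 peaks (chromosome 16, 30681131 to 30694039, plus strand) at a quantile of 0.956. Its highest, 3.40, was also around the stop codon, and the others scored 2.70 at the transcript start and 2.78 and 2.68 in the 3' UTR. The stop codon peaks of both partners lay beyond the stop codon, 117 nt in RNF20 and 23 nt in RNF40. RNF4, which targets SUMO-modified proteins, scored 5.02 in exon 8, also around the stop codon (chromosome 4, 2440605 to 2487381). RNF113A, a spliceosome-associated protein encoded by a single exon, had peaks of 3.77 at the transcript start and 3.42 in the coding sequence. RNF138, which promotes resection of DNA ends, was the member of the list without a peak, at a quantile of 0.70.

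Ligases of the Wnt and TGF-beta pathways had peaks in 6 of the 7 genes found under an RNF symbol, with 14 peaks. RNF43, which removes Frizzled receptors of Wnt from the cell surface, had 3 peaks, all in the coding sequence (chromosome 17, 53786037 to 53849930, minus strand). The scores were 4.38 in exon 2 (637 nt) and 5.64 and 3.14 in exon 9 (1356 nt). ZNRF3, its partner in the same task, had 4 peaks with a highest score of 5.99, 3 of them in the coding sequence and 1 around the stop codon. RNF11, a small protein with roles in NF-kB and TGF-beta signalling, had a single peak of 5.74 in exon 3 (chromosome 1, 51474533 to 51511707, plus strand), 65 nt before the last base of the stop codon.

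RNF111 (Arkadia), which raises TGF-beta signalling by degrading its inhibitors, had 4 peaks spread over the transcript (chromosome 15, 57067157 to 57176545). The highest, 4.78, was in the coding part of exon 2 (899 nt), and the others scored 2.72 at the transcript start, 2.26 in the inner 5' UTR and 2.23 around the stop codon. RNF165, its close relative, also had 4 peaks, all in exon 8 (4302 nt; chromosome 18, 42168185 to 42294781). They scored 4.30 around the stop codon and 2.24, 2.08 and 4.76 in the 3' UTR, the last at 3429 nt beyond the stop codon. RNF146, which sends ADP-ribosylated axin to degradation, scored 2.24 and RNF220 scored 2.54, each with 1 coding sequence peak. RNF6 had none at a quantile of 0.718.

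Among innate immune and NF-kB ligases 6 of 7 genes had a peak, with 14 peaks. RNF213, a giant protein with ATPase and ligase activity linked to moyamoya disease of brain arteries, had 8, the most of any RNF gene (chromosome 17, 75928321 to 75984673, plus strand). They fell into 2 exons, 4 in exon 4 (3609 nt; scores 2.11, 2.81, 2.90 and 3.84, coding sequence) and 4 in exon 43 (2934 nt). The exon 43 peaks scored 4.35 around the stop codon and 5.21, 4.67 and 3.59 in the 3' UTR, so that its 3 highest scores were all in exon 43. RNF135 (Riplet), which activates the RNA sensor RIG-I, scored 3.27 in the coding sequence, and RNF166 scored 2.80 around the stop codon and 2.39 in the 3' UTR. RNF114 had a start peak alone, of 2.72. RNF125, which marks RIG-I for degradation, had none, at a quantile of 0.514.

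The RBR ligases had peaks in 5 of 8 genes, and 5 of their 8 peaks were in the coding sequence. RNF19B scored 4.49 in exon 9, and its relative RNF19A had coding sequence peaks of 3.06 and 4.14 in exons 3 and 11. RNF31 (HOIP), the catalytic subunit that builds linear ubiquitin chains, had a peak of 2.65 in exon 8, which at 291 nt was the shortest exon with a coding sequence peak in the RNF genes. RBCK1 (HOIL-1), its partner in that complex, had 2 peaks with a highest score of 3.01. RNF217 scored 3.28 in the 3' UTR. RNF216 had 3 weak peaks with a highest score of 2.41. RNF14, RNF144A and RNF144B had none, at quantiles of 0.568, 0.399 and 0.562.

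Ligases of the endoplasmic reticulum had peaks in 4 of 9 genes. RNF145, a membrane ligase of sterol metabolism, scored 4.36 around the stop codon and 5.16 in the 3' UTR, both in exon 11 (1625 nt; chromosome 5, 158516997 to 158567412, minus strand). RNF121 scored 4.24 around the stop codon and 3.67 in the 3' UTR of exon 9, and RNF103 scored 3.99 in the coding part of its last exon. RNF139 (TRC8), a relative of RNF145, had 2 coding sequence peaks of 2.94 and 2.47. RNF5 and RNF185, which share a role in removing misfolded membrane proteins, had no peak at quantiles of 0.802 and 0.639. RNF26 had none at 0.881.

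Membrane ligases with a protease-associated domain had peaks in 5 of 10 genes, RNF43 among them. RNF150 scored 4.03 around the stop codon and 2.51 in the coding sequence of exon 1. RNF149 had a single start peak of 2.93, RNF13 scored 2.49 in the inner 5' UTR and 2.23 in the coding sequence, and RNF215 scored 2.10, the lowest highest score of all RNF genes with a peak. RNF167 and RNF130, at quantiles of 0.951 and 0.839, had none, and RNF128, RNF133 and RNF148 stood at the lowest quantile.

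All 7 ligases of cytosolic quality control and trafficking had a peak. RNF115 scored 5.16 and RNF25, a ribosome-linked ligase, 4.93, each with 1 peak around the stop codon (chromosome 1, 144322393 to 144400084, and chromosome 2, 219236831 to 219245025). RNF126, which works with BAG6 on mislocalised proteins, had 3 peaks in exon 9 (752 nt), at 2.42 around the stop codon and 2.27 and 3.42 in the 3' UTR. RNF34 scored 3.79 in the coding sequence and RNF41, which controls ERBB3 levels, 3.38 around the stop codon. RNF10 and RNF181 had a start peak alone (2.42 and 2.70). The 7 genes were well expressed as a list, with a median quantile of 0.874, against 0.679 for all RNF transcripts. Of coding transcripts from 0.8 to 0.9, 71.5% had a peak.

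The germline and tissue-restricted list had 1 gene with a peak of 9, and 7 of the 9 were at the lowest quantile. That gene, RNF182, described in the brain, reached the second highest score, 5.88, in the coding part of exon 3 (3096 nt; chromosome 6, 14033182 to 14088214), at a quantile of 0.666. RNF32, at 0.55, had none. RNF12, listed with the Wnt and TGF-beta ligases, is not a symbol of the table. A row of that gene under a symbol outside the rule would not have been counted. The role lists cover 60 of the 81 RNF transcripts. Of the other 21, RNF157 and RNF24 had single stop codon peaks of 5.05 each, RNF219, which takes part in replication origin firing, had coding sequence peaks of 3.47 and 4.55 in exon 6, and RNF187 had a 3' UTR peak of 2.23. RNF207, known from the heart, had 3 peaks with a highest score of 3.18 around the stop codon.

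The segments of the 80 peaks, taken over all scores, had shares near those of the table. The coding sequence held 30 (37.5%, interval 27.7 to 48.5%, against 36.6% of all 12424 peaks with a segment), the surroundings of the stop codon 22 (27.5%, 18.9 to 38.1%, against 27.6%) and the 3' UTR 17 (21.3%, 13.7 to 31.4%, against 20.5%). The transcript start, under 200 nt from the 5' end, held 9 (11.3%, 6.03 to 20.0%, against 12.5%) and the inner 5' UTR 2 (2.50%, against 2.78%). In each segment the share over all peaks lay inside the interval of the RNF peaks. Among peaks that scored at least 3, the shares moved, to 1 of 43 RNF peaks at the transcript start (2.33%, against 7.68% of all such peaks) and 17 of 43 around the stop codon (39.5%, against 32.0%). Counted by transcript, 22 RNF transcripts had a stop codon peak, 9 of them as their only peak, 13 had coding sequence peaks alone and 4 had a start peak alone.

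**Figure D2:**
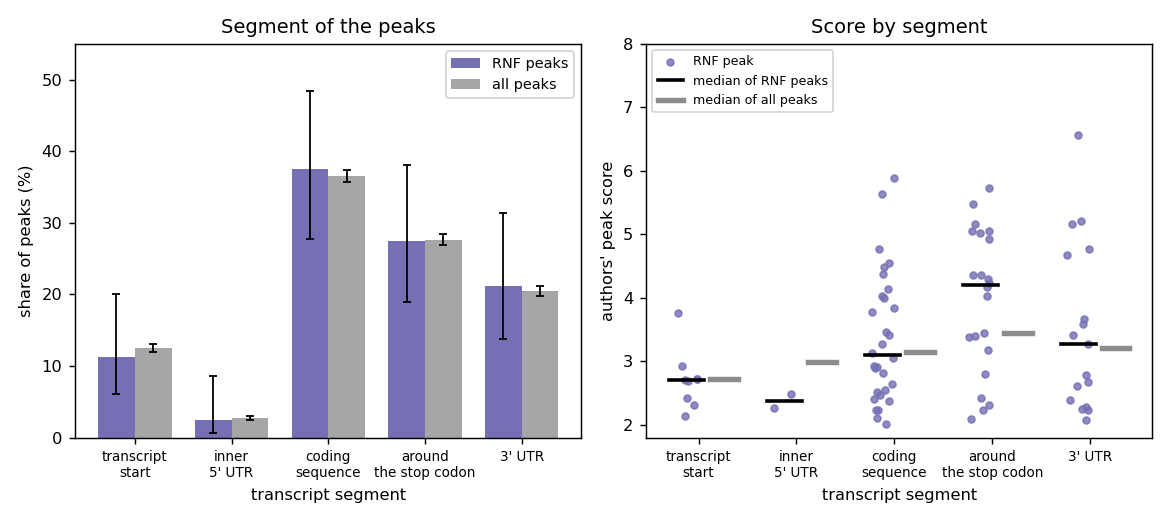
Left, share of peaks in each transcript segment (percent, bars with 95% Wilson intervals) for the 80 RNF peaks and for all 12424 peaks with a segment; right, the score of each RNF peak by segment with the medians of RNF peaks (black) and of all peaks (grey). The shares run close together, and the RNF median around the stop codon, 4.21, lies above that of all stop codon peaks, 3.45.

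Scores within the RNF genes were highest around the stop codon by median, though not by single peak. The median of the 22 there was 4.21 (range 2.10 to 5.74), against 3.45 over all stop codon peaks, and 13 of 22 (59.1%) scored 4 or more, against 32.8%. Coding sequence and 3' UTR peaks had medians of 3.10 and 3.28, against 3.14 and 3.22 over all peaks. Start peaks had a median of 2.70 (2.14 to 3.77), against 2.73. Of the 11 transcripts whose highest score was 5 or more, the highest peak was around the stop codon in 6, in the 3' UTR in 3 and in the coding sequence in 2, and at the transcript start in 0. These differences were not tested.

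The 37 RNF transcripts placed on GENCODE models carried 65 peaks. All 65 fell in the authors' segment when the segment was derived from the model, against 98.8% of 9842 placed peaks of the table. The segment limits were read from the authors' own values, and only models that fitted every peak were kept, so this match was partly built in. The last exon held 50 of the 65 (76.9%), against 65.2%. The 20 stop codon peaks lay from 176 nt before to 191 nt after the last base of the stop codon, with a median of 23 nt after it, and 12 of the 20 were within 100 nt, against 62.8% of 3012. The segment ends at about 200 nt to either side, so this range was bounded in advance and shows no gathering at the stop codon. RNF31, RNF34, RNF43, RNF115, RNF213 and RNF220, with 15 peaks, could not be placed and are described by the table alone.

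**Figure D3:**
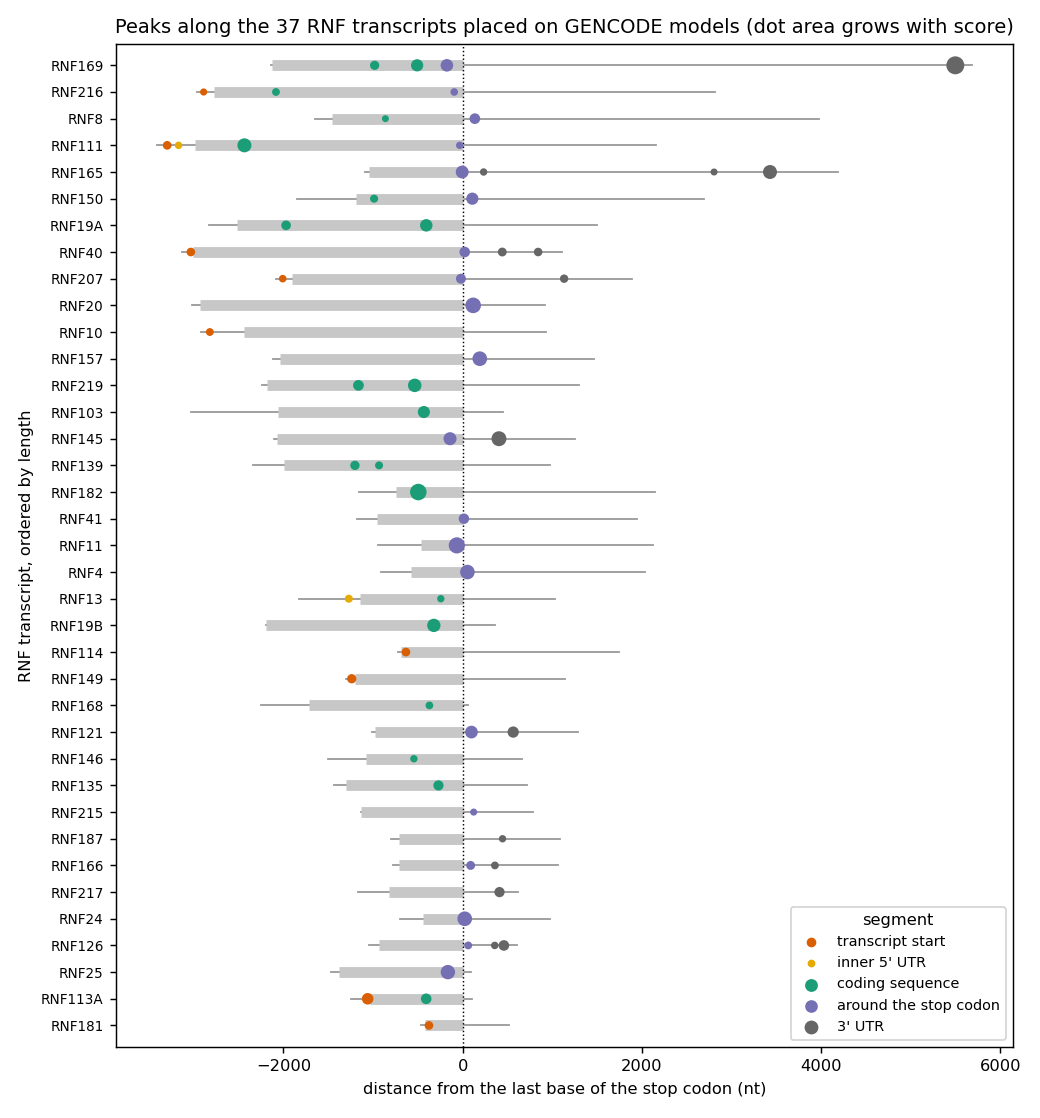
Peaks of the 37 RNF transcripts placed on GENCODE models, drawn by distance from the last base of the stop codon (nt); thin lines are transcripts, thick grey bars coding sequences, and dots peaks, coloured by segment with an area that grows with the score. Dots of stop codon peaks lie near 0 by the limits of that segment, so no gathering is read from them. The highest peaks of RNF169, at 5497 nt, and RNF165, at 3429 nt, lie far into the 3' UTR.

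Most RNF peaks were in long exons. The exon with the peak was at least 400 nt long for 74 of 80 (92.5%, interval 84.6 to 96.5%), against 84.6% of all peaks, and at least 1000 nt for 54 (67.5%), against 59.8%. Its median length was 1356 nt, against 1333 nt. Of the 6 peaks in shorter exons 5 were start peaks and the other was that of RNF31. Of 19 RNF transcripts with 2 or more peaks, 14 had peaks that shared an exon (73.7%, against 69.5%) and 9 had all peaks in 1 exon (47.4%, against 46.4%). Neighbouring peaks in an exon were 102 to 5673 nt apart, with a median of 474 nt, against 455 nt over the table. The closest pair was in RNF126 and the widest in RNF169.

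RRACH lay within 50 nt of 55 of 61 placed RNF peaks with a full window (90.2%, interval 80.2 to 95.4%), against 89.4% of 9508 placed peaks of the table. The pentamer GGACT, a form of RRACH, was in 19 of the 61 windows (31.1%, 20.9 to 43.6%), against 28.0%. Of all windows of the same length taken every 25 nt along the placed transcripts, 73.7% held RRACH and 9.56% held GGACT. The search ran on the sense strand, and a match is a description and not a measured site. RRACH was near 18 of 19 RNF peaks around the stop codon and 19 of 20 in the coding sequence, against 94.0% and 93.1% of all placed peaks there. It was near 11 of 14 RNF peaks in the 3' UTR and 6 of 7 at the transcript start, against 93.8% and 62.9%. The 6 peaks without it belonged to RNF126, RNF149, RNF165, RNF19A, RNF207 and RNF216 and scored at most 3.06. In RNF43, RNF115 and RNF213, which were not placed, the windows were not searched.

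RNF transcripts were spread over the whole expression range. Of 81, 11 stood at the lowest quantile (13.6%, against 31.4% of all transcripts) and none of them had a peak. Above it, 43 of 70 had a peak (61.4%, interval 49.7 to 72.0%), against 45.8% of coding transcripts. The least expressed RNF transcript with a peak was RNF157 at 0.568, and 11 RNF transcripts between that and the lowest quantile had none. Peaks were listed in 3 of 13 RNF transcripts from 0.5 to 0.6, 11 of 16 from 0.6 to 0.7, 12 of 14 from 0.7 to 0.8, 11 of 16 from 0.8 to 0.9 and 6 of 8 above 0.9. The shares of coding transcripts in those bands were 28.4%, 52.1%, 65.1%, 71.5% and 69.3%, each inside the interval of the RNF transcripts.

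**Figure D4:**
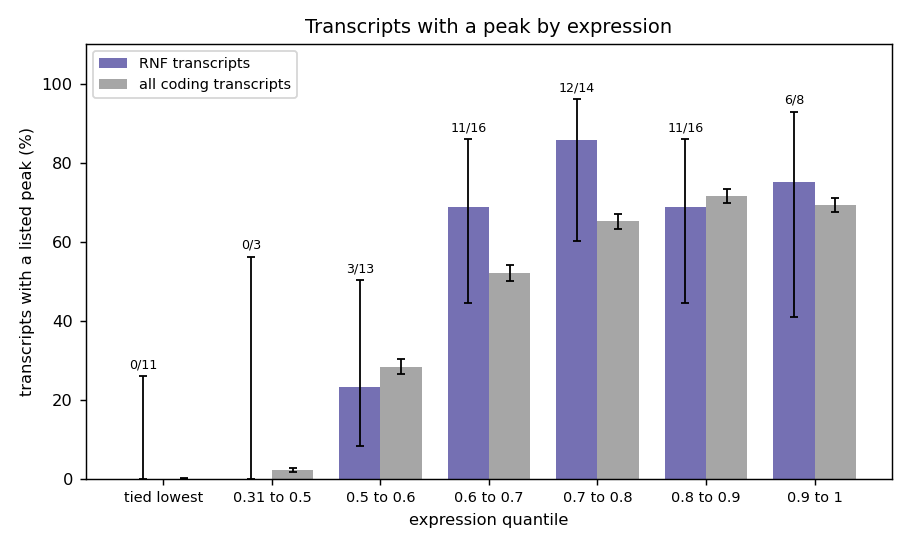
Share of transcripts with a listed peak (percent, bars with 95% Wilson intervals) in bands of the expression quantile, for RNF transcripts (counts above the bars) and for all coding transcripts. The share of RNF transcripts is highest between 0.7 and 0.8, at 12 of 14, and no RNF transcript below 0.5 has a peak.

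The 11 highest scores of 5 or more lay between quantiles of 0.568 and 0.869. The 6 RNF transcripts with a peak above a quantile of 0.9 had highest scores of 2.23 to 3.42, and among the 12 from 0.85 upward the median was 2.95, against 3.39 over all transcripts with a peak in that range. It was 4.24 for the 17 from 0.7 to 0.85 (against 3.62) and 4.09 for the 14 below 0.7 (against 3.68). Across the 43 RNF transcripts with a peak, quantile and highest score had a Spearman rho of -0.32, against -0.11 over all transcripts with a peak. All values of this relation come from the same pooled libraries. RNF213, at 0.869, and RNF25, at 0.874, were the only RNF transcripts from 0.85 upward with a score of 4 or more.

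**Figure D5:**
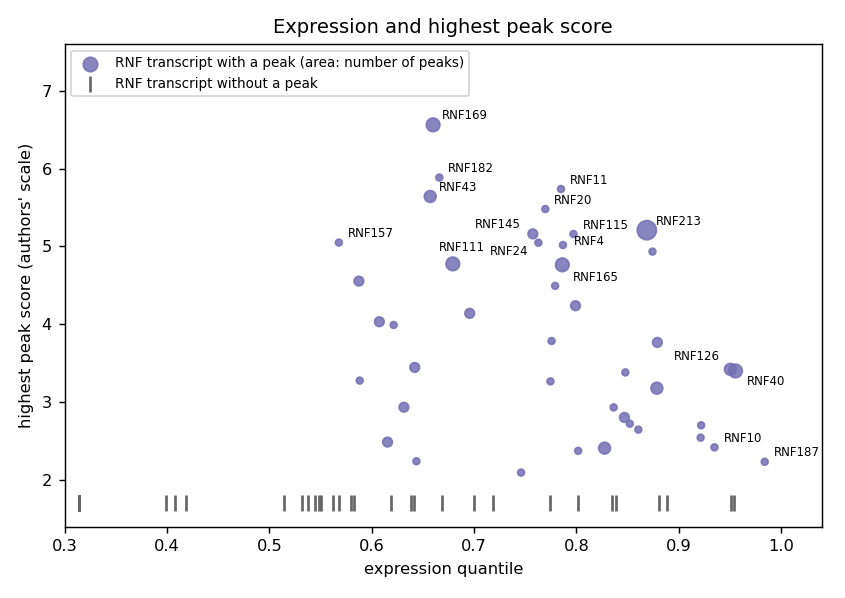
Highest peak score (authors' scale) against expression quantile for the 43 RNF transcripts with a peak, with dot area growing with the number of peaks; ticks at the bottom mark the 38 without a peak. The 11 scores of 5 or more lie between the quantiles of RNF157, 0.568, and RNF213, 0.869.

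Peaks were listed in 11 of 16 RNF transcripts from 0.8 to 0.9 and 6 of 8 above 0.9, against 71.5% and 69.3% of coding transcripts. Nothing is therefore read from the missing peaks as particular to RNF genes. A peak was missing in 7 RNF transcripts above a quantile of 0.8. The most expressed of these were RNF44 (0.954; chromosome 5, 175886306 to 175897027, minus strand), RNF167, an endosomal ligase (0.951; chromosome 17, 4784375 to 4789262, plus strand), RNF123, a ligase of the cell cycle inhibitor p27 (0.888), RNF26 (0.881) and RNF130 (0.839). The other 2 were RNF7, the RING subunit of some cullin ligases (0.835), and RNF5 (0.802). Transcript length, by the longest complete GENCODE coding transcript of each gene, had a median of 3627 nt in the 43 with a peak and 3638 nt in 22 without a peak above a quantile of 0.5. Coding genes above that quantile had medians of 3769 nt with a peak and 2816 nt without. The 22 RNF genes without a peak ranged from 1135 to 9945 nt, the longest being RNF130. By that length, peaks were listed in 8 of 14 RNF genes under 2500 nt, 20 of 31 from 2500 to under 4500 nt and 15 of 20 from 4500 nt upward, against 47.0%, 62.2% and 69.97% of coding genes above that quantile. The longest model can be far longer than the transcript of the table. For RNF24 it was 7453 nt, against 1679 nt as placed. These counts therefore sort genes by their longest model and not by the measured transcript.

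Related RNF genes were compared in 13 pairs chosen after the values were seen. Both genes had a peak in 7 pairs, neither in 3 and 1 of them in 3. Of all RNF transcripts, 53.1% had a peak. No count over unrelated pairs stands beside these, so nothing is read from them about relatedness. Stop codon peaks were shared by RNF20 and RNF40, by RNF111 and RNF165, and by RNF115 (5.16) and RNF126 (2.42), while RNF19A and RNF19B had coding sequence peaks alone. RNF13 had 2 peaks at a quantile of 0.616 and RNF167 none at 0.951, so in that pair the less expressed gene had the peaks. RNF121 and RNF113A had peaks, while RNF175, at the lowest quantile, and RNF113B, at 0.419, had none.

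Other genes of the pathway were set beside the RNF genes by count. E2 enzymes, which carry the ubiquitin that RING ligases pass on, had a peak in 6 of 18 genes found (33.3%), with UBE2J2 at 4.24 and UBE2E3 at 4.12, both around the stop codon, and E1 and ubiquitin genes in 3 of 6, with UBA6 at 4.51 and UBB at 3.75. RING ligases of other names had a peak in 30 of 34 (88.2%), with UHRF1, which binds hemimethylated DNA, at 6.99 and the apoptosis inhibitor XIAP at 6.66. HECT ligases, which like RBR ligases carry ubiquitin on a cysteine, had a peak in 14 of 19 (73.7%), with HERC2 at 6.97. At the lowest quantile stood 11 of the 81 RNF genes, against 0 of these 34 and 0 of these 19. The median quantile was 0.764 for the E2 list, 0.731 for the other RING ligases and 0.752 for the HECT ligases. A peak was listed in 65.1% of coding transcripts from 0.7 to 0.8 and in 35.0% of all coding transcripts. Differences between these lists were not tested. Against the 53.1% of RNF genes with a peak, at a median quantile of 0.679, TRIM genes, a further family of RING ligases, had a peak in 26 of 64 (40.6%) at 0.567. F-box genes had a peak in 37 of 68 (54.4%) at 0.687 and UBE2 genes in 15 of 36 (41.7%) at 0.786. Stop codon peaks made up 27.5% of RNF peaks, 27.6% of TRIM, 24.4% of F-box and 11 of 20 UBE2 peaks. The highest score per transcript with a peak had a median of 3.77 in RNF, 3.57 in TRIM, 4.21 in F-box and 3.31 in UBE2 genes. RNF scores were thus not the highest of these families.

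The genomic spans of 20 RNF transcripts overlapped a transcript of another symbol, and 11 of the 20 had a peak. The overlap was on the opposite strand in 12, and 7 of those 12 had a peak (RNF103, RNF113A, RNF139, RNF157, RNF169, RNF207 and RNF213). A peak was listed in 53.1% of all RNF transcripts. The share of all transcripts with such an overlap is not given here, so nothing is read from these counts. Whether strand was used in counting is not given in the sources used here. Reads of the 12 genes and of their partners therefore cannot be told apart where exons overlap.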

How the data were processed

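Per the labels' protocols, poly(A) RNA of 4 anti-m6A and 3 input libraries was fragmented to about 100 nt before precipitation. No source used here names the aligner, the caller or the build. The authors deposited 1 pooled table of transcripts. Per the file headers, it holds an expression quantile (a fraction from 0 to 1), the number of peaks, and each peak's position, exon, segment and score (the authors' score, never under 2.00 in the table). Neither depth nor replicate error is known. Coordinates are the table's, with starts counted from 1.

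RNF rows were selected by symbol. Shares have 95% Wilson intervals (scipy 1.17.1), and medians are given beside those of the whole table. Peaks were placed on complete protein-coding GENCODE release 29 transcripts of the same symbol, chromosome and strand. A placement required every peak to fall in an exon of the listed number and length, and allowed the transcript ends to differ (37 of 43 RNF transcripts with a peak, 8 with the same ends; 5494 of 7240 over the table). Placement and motif search were tested on simulated data. Members and the 12 gene lists were chosen with earlier results of these data known. The rule for naming genes took the top 10 by score, the top 5 by number of peaks, the 5 most expressed without a peak, up to 4 of each role list with its most expressed member without a peak, and up to 2 of each pathway list. Other RNF genes, ZNRF3, RBCK1 and the liver genes were named after their values were seen. A gene that this rule names in a pathway list, and 1 pair of related RNF genes, are not reported here by name.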

Additional observations from a re-analysis of the deposited data

How the results depend on the processing

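Of 17 alternatives to 5 results, 12 stayed within the interval of the value they were set against. With only peaks of a score of at least 3, 35.8% of RNF transcripts had a peak (29 of 81, against 19.3% of all transcripts), and with at least 4, 23.5% (19 of 81, against 10.0%). Fewer peaks are counted there by construction. Among RNF peaks scoring at least 3, 39.5% lay around the stop codon (17 of 43, against 32.0% of all such peaks) and 2.33% at the transcript start (1 of 43, against 7.68%). Within 30 nt in place of 50, 75.4% of placed RNF peaks had RRACH (46 of 61, against 76.5% of all placed peaks), a narrower window by construction. Including RNF2, which had no peak, gave 52.4% of transcripts with a peak. Leaving out the 3 pseudogene rows gave 55.1%, and using only transcripts with the same ends as GENCODE gave RRACH near 14 of 15 peaks. Both of these alternatives were chosen after seeing the data. No paired analysis was possible because the table holds no value per library. For the same reason no library could be left out. Depth is unknown, so a transcript without a listed peak may have had too few reads for one.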
